A study of Homo sapiens with 12 samples.

Results

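The mRNA levels of 9 human genes that encode peroxiredoxins and thioredoxin system proteins were followed in HEK293T cells, a human embryonic kidney line, after treatment with a cysteine-reactive probe, a thiolated nucleoside or both. The genes were taken by symbol from the deposited tables, PRDX1 to PRDX6, TXN, TXN2 and TXNRD2, and all 9 of the 9 were found among 58735 annotated genes and passed the low-count filter that left 17729 genes for testing. Polyadenylated RNA was sequenced from 12 libraries of wild type HEK293T cells in 4 groups of 3. The DMSO group received solvent, the CEP group 25 µM of AHL-Pu-1, a clickable electrophilic purine, for 1 h, the 4SU group 100 µM of 4-thiouridine for 16 h, and the CEP+4SU group both compounds. The series design gives the CEP dose in µM, whereas the treatment protocol of the labels prints the same figure in mM. That protocol, which includes UV crosslinking on ice between the 2 compounds, is worded identically for all 12 libraries and does not say which groups were irradiated. The design calls the replicates independent but ties them to 1 cell line, so the tests below measure the spread between these libraries.

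Peroxiredoxins are abundant thiol enzymes that reduce hydrogen peroxide and organic peroxides with a reactive cysteine, which is oxidized in each cycle. Thioredoxin returns most oxidized peroxiredoxins to the thiol form, and thioredoxin reductase, a selenoprotein, recharges thioredoxin with electrons from NADPH. Cytosol and mitochondria hold separate sets of these proteins, and reactive cysteines of this kind are common targets of electrophilic probes.

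Library depth was 16569114 to 24644734 counts on genes, and the common biological coefficient of variation was 0.114. CEP replicate 2 and CEP+4SU replicate 2 stood apart with 22230 and 22627 genes detected, against 24376 to 25869 in the other 10 libraries. All 7 of the HEK293T markers examined were present, with a summed level of 158 to 172 FPKM (fragments scaled by gene length and library size). PAX2 was the lowest of them, at 0.832 to 1.46 FPKM. The 5 melanoma markers summed to 1.68 to 3.29 FPKM. Of these, PMEL had 1.15 to 2.73 FPKM, DCT 0.186 to 0.844, MLANA 0.0381 to 0.304 and SOX10 at most 0.126, with TYR at 0 in every library. The summed levels of 3 blood, 2 endothelial and 1 liver marker were each at most 0.161 FPKM. The 9 genes together took 0.224% to 0.256% of all counts, and the smallest and largest single counts were 456 (TXNRD2) and 12585 (PRDX1).

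In DMSO the 9 genes ranged from 4.83 to 333 FPKM, with cytosolic PRDX1 and TXN the most abundant and the mitochondrial reductase TXNRD2 the least. The cytosolic 2-Cys enzyme PRDX1 had 333 ± 17.1 FPKM (SD, n = 3) and cytosolic thioredoxin, TXN, 325 ± 5.63 FPKM. The ranges of these 2 genes overlapped. PRDX6, the 1-Cys enzyme that uses glutathione as its reductant, followed at 160 ± 2.44 FPKM, and its range overlapped that of PRDX2, the second cytosolic 2-Cys enzyme, at 150 ± 14.8 FPKM. PRDX4, the enzyme of the endoplasmic reticulum, had 119 ± 5.68 FPKM and PRDX5, an atypical 2-Cys enzyme found in mitochondria, peroxisomes and cytosol, 118 ± 4.50 FPKM, again with overlapping ranges. PRDX3, the mitochondrial 2-Cys enzyme, had 107 ± 6.51 FPKM, mitochondrial thioredoxin, TXN2, 55.0 ± 0.519 FPKM, and TXNRD2, the mitochondrial thioredoxin reductase, 4.83 ± 0.666 FPKM. In the groups with CEP the mean of TXN was above that of PRDX1 and the mean of PRDX3 above that of PRDX5, and the rest of the order was the same in the 4 groups. The cytosolic reductase TXNRD1, which is not among the 9, stood at 41.0 ± 2.16 FPKM in DMSO.

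**Figure D1:**
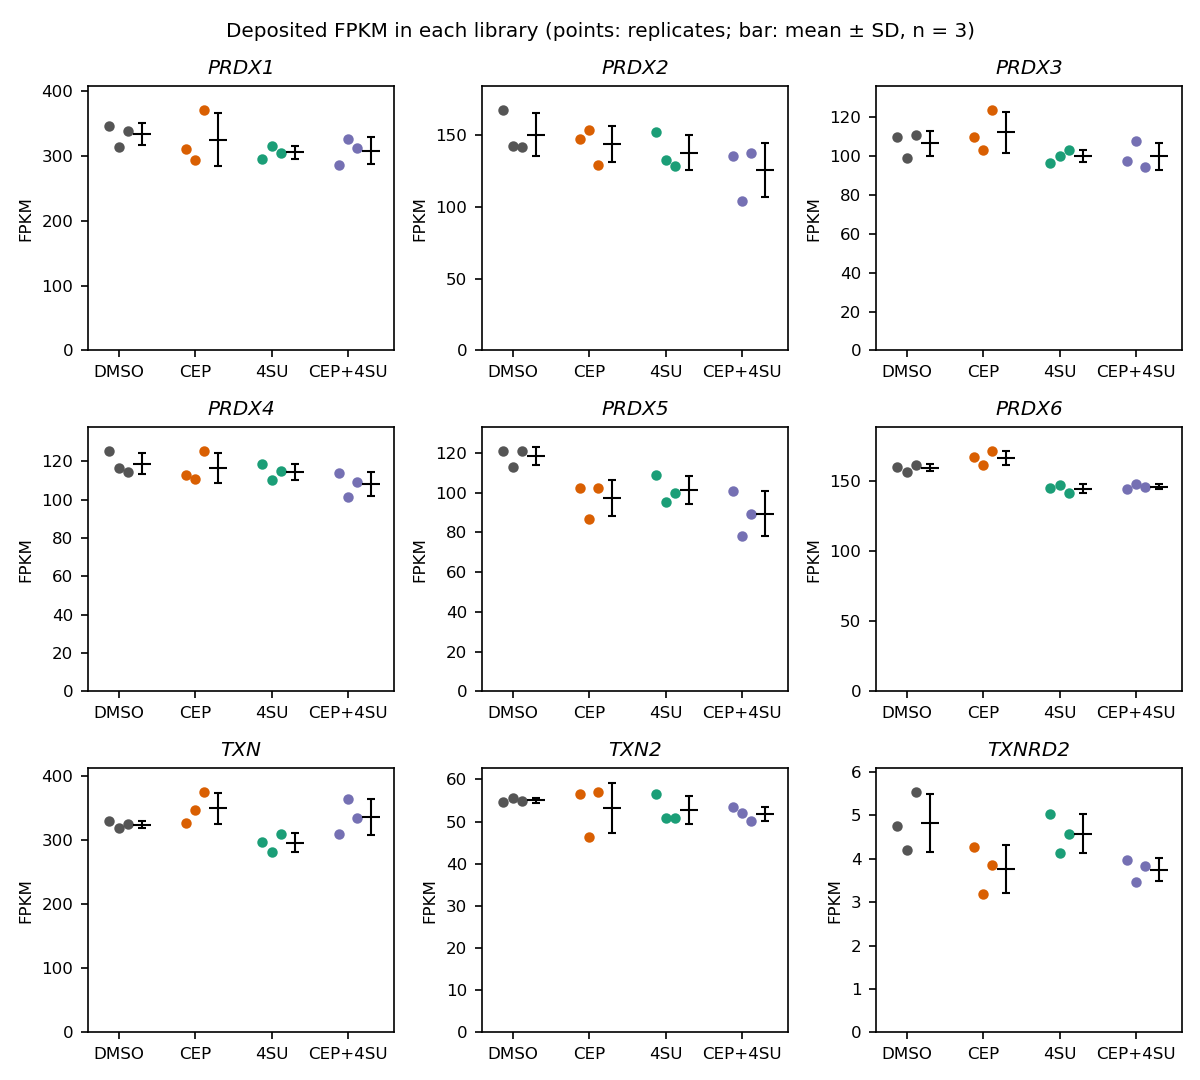
Deposited FPKM (y axis, from 0) of each of the 9 genes in the DMSO, CEP, 4SU and CEP+4SU groups (x axis), with 1 point per library and the mean ± SD of 3 libraries beside them. PRDX5 was lower than in DMSO in all 9 treated libraries, PRDX6 was lower in the 6 libraries with 4SU than in the 6 without, and TXN and PRDX1 were the highest of the 9 in every group.

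The genes lie on 7 chromosomes in GRCh38, and a few share their locus with another gene. PRDX5 lies on chromosome 11 (chr11:64318088-64321811, plus strand, 4 to 6 exons per transcript), and TRMT112 starts 4 bases away on the other strand without shared exonic bases. TXNRD2 lies on chromosome 22 (chr22:19875517-19941992, minus strand, 7 to 18 exons). PRDX1 (chr1:45511036-45523047, minus strand) shares 379 of 1522 exonic bases with MMACHC on the other strand, and PRDX2 (chr19:12796820-12801859, minus strand) lies within the span of HOOK2 without shared exonic bases. Whether reads were counted by strand is not given in the sources used here, so reads in the shared exonic bases of PRDX1 and MMACHC may belong to either gene. The other members are PRDX3 (chr10:119167703-119178833, minus strand), PRDX4 (chrX:23664262-23686399, plus strand), PRDX6 (chr1:173477266-173488807, plus strand), TXN (chr9:110243811-110256640, minus strand) and TXN2 (chr22:36467036-36482030, minus strand). Pseudogenes named after the members, taken by symbol, held at most 0.303% of a member's counts in any library.

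RefSeq (GRCh38.p14) gave promoter entries for 6 of the 9 genes. Those of PRDX5 and TXNRD2, the 2 genes with the largest decreases, and of TXN, whose values went the other way with CEP, are printed as the 250 bases upstream of the first listed RefSeq start, 5′ to 3′ on the gene's strand. Capitals mark matches to the GC box GGGCGG or its reverse complement and, in TXN, to the TATA box TATAAA on both strands, which overlap.
PRDX5, chr11:64317871-64318120, plus strand: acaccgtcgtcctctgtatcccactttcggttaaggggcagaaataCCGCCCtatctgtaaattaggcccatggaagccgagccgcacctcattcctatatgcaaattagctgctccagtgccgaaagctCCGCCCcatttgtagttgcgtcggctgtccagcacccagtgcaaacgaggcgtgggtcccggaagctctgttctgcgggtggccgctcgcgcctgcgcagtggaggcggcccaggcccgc
TXNRD2, chr22:19941819-19942068, minus strand: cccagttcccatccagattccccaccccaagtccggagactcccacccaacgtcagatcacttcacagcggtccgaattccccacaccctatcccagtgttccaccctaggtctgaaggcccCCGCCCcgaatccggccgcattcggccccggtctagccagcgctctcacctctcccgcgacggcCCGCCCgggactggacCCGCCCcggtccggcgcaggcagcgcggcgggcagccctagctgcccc
TXN, chr9:110256508-110256757, minus strand: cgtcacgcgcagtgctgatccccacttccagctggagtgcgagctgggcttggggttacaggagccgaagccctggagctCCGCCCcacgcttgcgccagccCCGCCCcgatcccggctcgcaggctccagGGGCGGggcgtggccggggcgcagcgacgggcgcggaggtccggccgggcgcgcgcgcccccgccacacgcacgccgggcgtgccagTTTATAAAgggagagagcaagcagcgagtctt

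In the full 300-base window, which adds 50 bases after the start, PRDX5 held 2 GC box matches, TXNRD2 3 and TXN 3, and 45.0% of 35116 RefSeq promoters of that length held at least 1. The TATA box was matched in TXN 30 bases before the start, a motif found in 11.5% of promoters. The core of the antioxidant response element, TGACNNNGC, was matched in none of the 9 windows listed for the 6 genes, against 13.3% of all promoters on either strand, which says only that these letters are not in these windows.

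After CEP alone, the 2 lowest changes among the 9 genes were those of PRDX5 and TXNRD2, and neither passed the test across all genes. This comparison asks whether the electrophilic probe, in the cells for 1 h, altered these mRNAs. With edgeR's quasi-likelihood test and Benjamini-Hochberg adjustment at 0.05, 0 of the 9 genes and 0.0564% of the 17729 genes tested were called, and 2 of the 9, PRDX5 and TXNRD2, had an unadjusted p under 0.05. Over all genes tested, 1734 higher and 1554 lower had an unadjusted p under 0.05. DESeq2 and limma also called 0 of the 9. PRDX5 had a log2 fold change of -0.28 (SE 0.096, adjusted p = 0.188) and TXNRD2 of -0.36 (SE 0.12, adjusted p = 0.190). The other 7 genes lay between -0.063 (PRDX2) and 0.11 (TXN), and the median of the 9 was -0.033, beside -0.0047 over all genes tested. PRDX5 was the only member whose CEP and DMSO libraries did not overlap in CPM (counts scaled to the TMM library size), as 23.7% of all genes tested did not in either direction. It lay lower with CEP, as did 1798 of the 17729 genes tested. All comparisons with DMSO share the same 3 control libraries.

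After 4SU alone all 9 genes had negative fold changes and none passed the test. Here 0 of the 9 and 0.00564% of all genes were called by edgeR with Benjamini-Hochberg adjustment, 2 of the 9, PRDX5 and PRDX6, had an unadjusted p under 0.05, and DESeq2 and limma called 0 of the 9. Of all genes tested, 492 were higher and 659 lower at an unadjusted p under 0.05. The log2 fold changes ran from -0.060 (PRDX4) to -0.23 (PRDX5), with a median of -0.13, beside -0.0072 over all genes. For PRDX5 the adjusted p was 0.744 and for PRDX6, at -0.15 (SE 0.062), it was also 0.744. The 4SU and DMSO libraries did not overlap in CPM for 4 of the 9 genes, PRDX1, PRDX5, PRDX6 and TXN, and for 17.9% of all genes tested in either direction. All 4 members lay lower with 4SU, as did 1821 of the 17729 genes tested. For PRDX1 that gap was narrow, with a highest 4SU library of 480.7 CPM, and its deposited FPKM ranges did overlap.

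With both compounds PRDX5 fell, and it was the only one of the 9 genes to pass the test. PRDX5 had 121, 113 and 121 FPKM in the 3 DMSO libraries, 102, 86.8 and 102 FPKM with CEP, 109, 95.5 and 99.7 FPKM with 4SU, and 101, 78.1 and 89.0 FPKM with both. All 9 treated libraries lay below the lowest DMSO library, and the lowest value of all was in CEP+4SU replicate 2. The level fell by 24.6%, a fitted log2 fold change on counts of -0.41 (SE 0.096, 95% interval -0.61 to -0.21), with an adjusted p of 0.0427 from edgeR's quasi-likelihood test. This is 1 call in 9 genes, where 1.64% of all genes tested passed in either direction and 0.993% passed as lower.

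The PRDX5 call rested on small margins. It was lost, with adjusted p of 0.170, 0.124 and 0.151, without DMSO replicate 1, 2 or 3, and without 4SU replicate 2 (0.0610), 4SU replicate 3 (0.0726), CEP+4SU replicate 2 (0.191, log2 fold change -0.32) or CEP+4SU replicate 3 (0.0961). The fold change of PRDX5 stayed negative, from -0.51 to -0.32, whichever of the 12 libraries was left out. Without both libraries that had few genes detected it was -0.32 (adjusted p = 0.0600), and with limma on log2(FPKM + 1) it was -0.41 (adjusted p = 0.197). Its start-site neighbour TRMT112 had a log2 fold change of -0.24 in the same comparison (adjusted p = 0.276).

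TXNRD2 had nearly the same fold change as PRDX5 and did not pass the threshold. Its levels were 4.75, 4.21 and 5.53 FPKM in DMSO, 4.27, 3.18 and 3.85 FPKM with CEP, 5.03, 4.14 and 4.57 FPKM with 4SU, and 3.97, 3.45 and 3.83 FPKM with both. The CEP+4SU libraries lay below all DMSO libraries, while the CEP libraries overlapped DMSO through replicate 1. The log2 fold change with both compounds was -0.37 (SE 0.12, adjusted p = 0.104), and DESeq2 gave an adjusted p of 0.0490.

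The other 7 genes showed smaller differences with both compounds. PRDX2 averaged 126 ± 19.0 FPKM against 150 ± 14.8 FPKM in DMSO, and its log2 fold change was -0.26 (SE 0.10, adjusted p = 0.165). PRDX1, PRDX3, PRDX4, PRDX6 and TXN2 had values between -0.085 and -0.13, and TXN had 0.051. In all, 6 of the 9 genes, PRDX2, PRDX4, PRDX5, PRDX6, TXN2 and TXNRD2, were lower in all 3 CEP+4SU libraries than in any DMSO library by CPM, beside 28.7% of all genes that did not overlap in either direction. Of the 17729 genes tested, 2584 lay lower in this way. The median over the 9 was -0.13, beside 5.8e-05 over all genes tested.

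**Figure D2:**
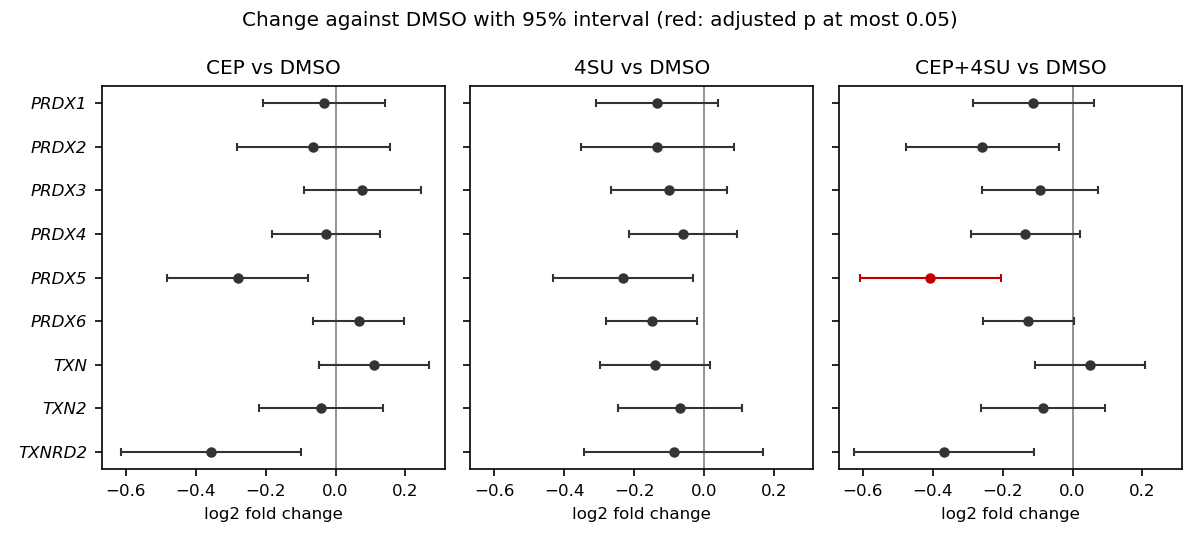
Log2 fold change of each gene (y axis) against DMSO in the CEP, 4SU and CEP+4SU groups (x axis), with points for the edgeR estimate from counts, bars for the 95% interval, and red for an adjusted p of at most 0.05. Of the estimates shown, the one for PRDX5 with both compounds, -0.41, is in red, and all 9 estimates with 4SU alone lie left of 0.

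GC content of the transcripts moved with these differences. The longest annotated transcript of PRDX5 is 61.5% G and C and that of TXNRD2 62.6%, at the 89.6th and 91.9th percentiles of the genes tested, where the median is 48.5%. In CEP+4SU against DMSO, genes in the top 25% of GC content had a median log2 fold change of -0.22 and those in the bottom 25% of 0.17. When each library's trend on GC content was removed, the log2 fold change of PRDX5 was -0.17 (adjusted p = 0.200), that of TXNRD2 -0.10 (adjusted p = 0.676), and TXN2 turned from -0.085 to 0.052. TXN, with 42.8% G and C, turned from 0.051 to -0.055.

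When the 6 libraries with CEP were compared with the 6 without, none of the 9 genes passed in the edgeR fit. TXNRD2 and PRDX5 had the lowest estimates and TXN the highest. TXNRD2 had a log2 fold change of -0.32 (SE 0.087, adjusted p = 0.0719), PRDX5 of -0.23 (SE 0.068, adjusted p = 0.0811) and TXN of 0.15 (SE 0.053, adjusted p = 0.105). TXN had 330, 319 and 325 FPKM in DMSO, 327, 347 and 376 FPKM with CEP, 297, 281 and 311 FPKM with 4SU, and 309, 365 and 334 FPKM with both, so that the groups with and without CEP overlapped. The count was 0 of 9 with edgeR, where 0.276% of all genes passed in either direction and 0.175% as lower, 3 of 9 had an unadjusted p under 0.05, limma called 0 and DESeq2 called 2, TXNRD2 (adjusted p = 0.0151) and PRDX5 (adjusted p = 0.0213). Over all genes, 2389 higher and 1918 lower had an unadjusted p under 0.05, and DESeq2 called 1499. For 0 of the 9 were the 2 sets of 6 libraries fully separate, as they were for 1.73% of all genes. With the GC trend removed the values were -0.10 for TXNRD2, -0.034 for PRDX5 and 0.055 for TXN.

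**Figure D3:**
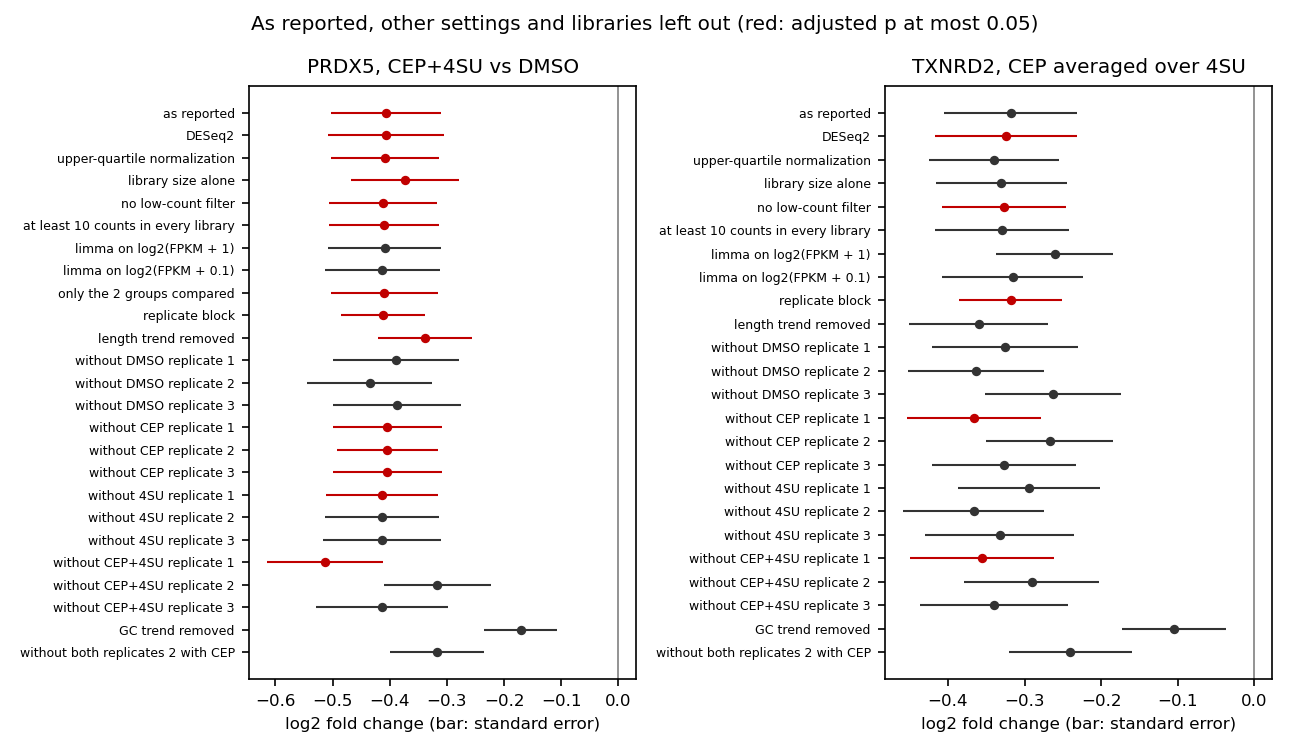
Log2 fold change (x axis, bars for the standard error) of PRDX5 in CEP+4SU against DMSO and of TXNRD2 with CEP averaged over 4SU, as reported and under each other setting or left-out library (y axis), in red where the adjusted p was at most 0.05. All estimates were below 0, the PRDX5 values ran from -0.51 to -0.17, and the value nearest to 0 in both panels is the one with the GC trend removed.

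PRDX6 was the only one of the 9 genes whose 6 libraries with 4SU and 6 without it did not overlap. Its levels were 161, 157 and 162 FPKM in DMSO, 167, 161 and 172 FPKM with CEP, 146, 147 and 142 FPKM with 4SU, and 145, 148 and 146 FPKM with both. Every library with 4SU lay below every library without it, as no other member's did, and the like held, in either direction, for 1.35% of all genes tested. As lower with 4SU it held for 153 genes. The log2 fold change of PRDX6 over the 6 against 6 libraries was -0.17 (SE 0.044, 95% interval -0.26 to -0.080), a difference of -11.2%, with an adjusted p of 0.0845 in edgeR and 0.00552 in DESeq2. With the GC trend removed the log2 fold change was -0.17 and the adjusted p 0.0109. PRDX6 has 45.2% G and C.

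All 9 genes had negative estimates for 4SU averaged over CEP, from -0.049 (TXNRD2) to -0.18 (PRDX5), with a median of -0.11 beside -0.0019 over all genes. By edgeR 0 of the 9 passed, beside 0.558% of all genes, and 4 of the 9, PRDX2, PRDX3, PRDX5 and PRDX6, had an unadjusted p under 0.05. DESeq2 called 1 of the 9, PRDX6, and limma called 0. Over all genes, 1004 higher and 1232 lower had an unadjusted p under 0.05, and DESeq2 called 336. In bulk RNA a lower share of a transcript in all cells and its loss from some cells cannot be told apart.

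The effect of CEP did not detectably differ with and without 4SU for any of the 9 genes. The interaction of the 2 compounds was called for 0 of the 9 and 0% of all genes tested by edgeR, and DESeq2 and limma also called 0 of the 9. No member had an unadjusted p under 0.05, while 229 higher and 238 lower of all genes tested did. The estimates ran from -0.071 (PRDX3) to 0.10 (PRDX5, 95% interval -0.18 to 0.39), so that differences of the size of the single effects lay within the intervals.

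Of the wider thiol redox system, 53 further genes were listed and 52 were tested, and TXNIP, the thioredoxin-interacting protein that binds and inhibits thioredoxin, fell with CEP. TXNIP had 11.8, 10.5 and 12.6 FPKM in DMSO, 7.69, 8.13 and 7.62 FPKM with CEP, 14.2, 13.6 and 13.8 FPKM with 4SU, and 8.40, 10.5 and 7.90 FPKM with both. All CEP libraries lay below all DMSO libraries, and CEP+4SU replicate 2 lay level with the lowest DMSO library. With CEP averaged over 4SU, TXNIP fell by 34.0%, a log2 fold change of -0.60 (SE 0.076, adjusted p = 0.000480 by edgeR), and it was the only one of the 52 called by edgeR in that comparison. Over all genes, edgeR called 49 there, DESeq2 1499 and limma 7. DESeq2 called 5 of the 52 there, TXNIP as lower and TMX3, SESN3, RRM2B and NNT as higher, of which TMX3, SESN3 and RRM2B are named after their values were seen, and limma on log2(FPKM + 1) called 1, TXNIP. It passed under all 11 other settings and without each of the 12 libraries in turn, from -0.68 to -0.55, with the GC trend removed among them (-0.68). In CEP+4SU against DMSO alone it was -0.38 (adjusted p = 0.0691).

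NNT, the mitochondrial transhydrogenase that supplies NADPH, was the other listed gene described here that passed. Its levels were 12.6, 13.3 and 12.02 FPKM in DMSO, 13.9, 15.1 and 13.5 FPKM with CEP, 11.04, 10.5 and 10.99 FPKM with 4SU, and 12.1, 12.3 and 11.4 FPKM with both. The 4SU libraries lay below all DMSO libraries, while the CEP+4SU libraries overlapped DMSO. With 4SU averaged over CEP, NNT fell by 0.24 on the log2 scale (SE 0.054, adjusted p = 0.0486), and the call held without CEP+4SU replicate 2 (0.0399) and was lost without any of the other 11 libraries, with adjusted p up to 0.172. The NNT call was also lost with upper-quartile normalization (0.0826), with library size alone (0.119), with at least 10 counts required in every library (0.0512) and with limma (0.107), as adjusted p.

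In the single-compound comparisons with DMSO and in the interaction, edgeR called none of the 52. For CEP alone 0 of the 52 passed, with 8 higher and 2 lower at an unadjusted p under 0.05, and DESeq2 called 1, TXNIP, and limma 0. Over all genes, 1734 were higher and 1554 lower at that unadjusted p, and DESeq2 called 253. For 4SU alone 0 passed, with 1 higher and 9 lower at an unadjusted p under 0.05, and DESeq2 and limma called 0. Over all genes, 492 were higher and 659 lower at that unadjusted p, and DESeq2 called 21 and limma 6. With both compounds edgeR called 1 of the 52, DESeq2 10, of which 3 were higher and 7 lower, and limma 0. Over all genes, edgeR called 290 in this comparison, DESeq2 1164 and limma 0. With 4SU averaged over CEP edgeR called 2 and DESeq2 7, all lower, and limma 0. Over all genes, edgeR called 99 in this comparison, DESeq2 336 and limma 17. For the interaction edgeR, DESeq2 and limma called 0, and 0 had an unadjusted p under 0.05. The medians of the 52 were 0.050 with CEP, -0.054 with 4SU and -0.056 with both. TXNRD1 had log2 fold changes of 0.062, -0.056 and 0.022 in these 3 comparisons. GSR, glutathione reductase, had 38.0 ± 1.52 FPKM in DMSO and log2 fold changes of 0.015, -0.13 and -0.068. SRXN1, the sulfiredoxin that restores overoxidized peroxiredoxins, had 2.25 ± 0.332 FPKM in DMSO, and with CEP averaged over 4SU its log2 fold change was -0.42 (SE 0.19, adjusted p = 0.193).

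Across the 12 libraries, PRDX5 and TXNRD2 had a Pearson r of 0.83 on log2 CPM, PRDX1 and PRDX3 of 0.82, and PRDX5 and TXN of -0.30. Of 10325 genes with a mean of at least 10 CPM, those most like PRDX1 were LTA4H (r = 0.90), TAF12 (0.89) and ACAT1 (0.89), and those most like TXN were AP3M1 (0.94), ZNF697 (0.93) and MOSPD1 (0.92). These correlations are descriptions over 12 libraries, which share treatments and depth between genes.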

How the data were processed

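Reads were processed by the authors, who per their methods aligned to GRCh38 with HISAT2 (2.0.5 in the submitters' processing notes) and counted with featureCounts (1.5.0-p3). The deposited counts are whole numbers per gene without normalization. The FPKM values deposited by the authors divide these counts by gene length and by library sizes 0.981 to 1.03 times the totals. All 58735 gene identifiers are in GENCODE 29.

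Counts were tested with edgeR 4.0.16 in R 4.3.3, with filterByExpr (minimum count 10, minimum total 15), TMM, 1 quasi-likelihood model of 4 groups, and Benjamini-Hochberg adjustment at 0.05 over 17729 genes. SE are those of the fit. DESeq2 1.42.0, limma 3.58.1 on log2(FPKM + 1) or log2(FPKM + 0.1), other normalizations and filters, only the 2 groups compared, a replicate block, the length trend, the 0.5 threshold of the study's methods and left-out libraries were alternatives. DESeq2 and limma were run without filterByExpr, limma on every gene with a nonzero FPKM in any library. Their adjusted p therefore rest on other sets of genes than the 17729 of edgeR. The GC trend, lowess with span 0.5 on the longest GENCODE transcript, and the removal of 2 libraries were added after the data were seen. On counts simulated for CEP averaged over 4SU on 17729 genes, edgeR recovered 96% of 200 changed genes, with 12 false calls. The planted log2 changes were 0.5 or larger, with 1 dispersion for all genes and no GC trend. Smaller changes and comparisons between single groups were not simulated, so this recovery does not give the power for the members.

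Named are the 9 members, TXNRD1, SRXN1, TXNIP and GSR, listed genes that passed in CEP+4SU or an averaged comparison, the 3 genes most like PRDX1 and TXN, and neighbours overlapping a member or starting within 1 kb on the other strand. Of the genes this rule selects, 2 are not reported here, and counts include them. The members, lists and motifs were chosen with earlier results or the sequences of these data known. Replicates did not duplicate each other (chi-square per degree of freedom 4.16 to 18.8 within groups). Counting intervals are not given, since the replicate spread was larger.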

Additional observations from a re-analysis of the deposited data

How the results depend on the processing

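With 3 libraries a group, the counts of the 9 genes called were small and moved with the tool. In CEP against DMSO the count was 0 as reported, 2 (PRDX5 and TXNRD2) with the replicate block, 3 at the threshold of 0.5 and 0 to 1 with a library left out (TXNRD2 without CEP replicate 1). In CEP+4SU against DMSO it was 1 as reported, 2 with DESeq2 and with the replicate block, 3 without a low-count filter, 6 at 0.5, 0 with limma at either pseudocount, with the GC trend removed and without both replicates 2 with CEP, and 0 to 1 with a library left out. For CEP averaged over 4SU it was 0 as reported, 2 with DESeq2, without a low-count filter and with the replicate block, 4 at 0.5, and 0 to 3 with a library left out (3 without CEP replicate 1 and 2 without CEP+4SU replicate 1). For 4SU averaged over CEP it was 0 as reported, 1 (PRDX6) with DESeq2, the replicate block, the GC trend removed and both replicates 2 with CEP left out, 6 at 0.5, and 0 without any single library. Counts for 4SU against DMSO and for the interaction were 0 under every setting run. The 0.5 threshold is lax over all genes too. Ranked by edgeR p among the 17729 genes tested, members passing it stood as low as 6584 (TXN, CEP against DMSO). They stood as low as 7520 (PRDX1, CEP+4SU against DMSO), 8565 (PRDX2, CEP averaged over 4SU) and 3201 (PRDX1, 4SU averaged over CEP). At least that many genes therefore passed in each comparison. All-gene counts with the replicate block or without the low-count filter are not given here. Over all genes given to each tool, edgeR called 290 in CEP+4SU against DMSO, DESeq2 1164 and limma 0. For CEP averaged over 4SU they called 49, 1499 and 7. The tools differ in the set of genes adjusted over as well as in the test. Whether replicate numbers pair the libraries was not settled. Of pairs with the same number in different groups, 1 of 18 had a correlation of deviations above 0.1. Their mean correlation was 0.027, beside -0.013 for different numbers, and 8 of 12 libraries were closest to their own number. With the replicate block edgeR gave PRDX5 in CEP+4SU against DMSO an adjusted p of 0.00331, beside 0.0427 as reported.

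Estimates near 0 changed sign in 48 cases, of which the largest was 0.092 and the smallest adjusted p 0.429. With the length trend removed, CEP against DMSO gave 0.079 (PRDX1), 0.041 (PRDX2), 0.079 (PRDX4) and 0.054 (TXN2), and CEP averaged over 4SU gave 0.080 (PRDX1), 0.027 (PRDX4) and 0.043 (TXN2). With the GC trend removed, CEP against DMSO gave 0.011 (PRDX1), 0.084 (PRDX2), -0.030 (PRDX3), 0.024 (PRDX4), -0.0030 (PRDX6), -0.0027 (TXN) and 0.092 (TXN2), 4SU against DMSO gave 0.012 (TXNRD2), CEP+4SU against DMSO gave -0.055 (TXN) and 0.052 (TXN2), CEP averaged over 4SU gave 0.027 (PRDX1), 0.019 (PRDX2), -0.049 (PRDX3), -0.015 (PRDX6) and 0.080 (TXN2), and 4SU averaged over CEP gave 0.0020 (TXNRD2). Without both replicates 2 with CEP, CEP against DMSO gave 0.039 (PRDX1), 0.0099 (PRDX4) and 0.051 (TXN2), CEP+4SU against DMSO gave -0.010 (TXN), and CEP averaged over 4SU gave 0.0051 (PRDX1) and 0.012 (TXN2). With single libraries left out, CEP against DMSO ran from -0.13 to 0.039 (PRDX1), -0.11 to 0.027 (PRDX2), -0.077 to 0.019 (PRDX4) and -0.088 to 0.051 (TXN2), 4SU against DMSO from -0.17 to 0.033 (TXNRD2), CEP+4SU against DMSO from -0.010 to 0.095 (TXN), CEP averaged over 4SU from -0.059 to 0.027 (PRDX1) and -0.057 to 0.014 (TXN2), and 4SU averaged over CEP from -0.097 to 0.0095 (TXNRD2). The cause of these changes was not tested. The FPKM levels of the 9 genes stayed within the spread between replicates when computed with TMM library sizes or with pseudogene counts added.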
